A study of Anethum foeniculum with 6 samples.

Results

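In fennel leaves, 55 assembled genes stood at least 3 times above every control library in red replicates 1 and 2. In red replicate 3 none of these genes exceeded its highest control. They were chosen by their measured CPM (counts scaled to the same total in every library). A gene was taken when it had at least 4 counts in every library, a mean of at least 5 CPM over the 6 libraries, a CPM in red replicate 1 and in red replicate 2 of at least 3 times the highest control, and a CPM in red replicate 3 not above the highest control. The 55 genes are 0.0432% of the 127290 rows of the table and 0.400% of the 13738 rows that meet both level limits. The rule used every library, so all levels and differences of these genes below are descriptions of the choice, and no test supports them.

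The leaves came from leafy fennel grown in hydroponics, given either ambient sunlight plus narrow-band red light from LEDs (red, 3 libraries) or ambient sunlight and no added light (control, 3 libraries). The age of the plants, the strength of the added light, its duration and the number of plants behind a library are unknown here. The labels call each library a biological replicate. The p-values below set the difference between red and control against the spread between these libraries only, which may be in part technical. Red light is absorbed by chlorophyll and drives photosynthesis, and it is sensed by the phytochromes, photoreceptors that switch between an inactive and an active form and act on the transcription of many genes. The rows are genes of a de novo assembly, in which transcripts are built from the reads without a genome, and identifiers with the same DN number belong to 1 assembled cluster. No row is paired with a gene name or a sequence in the data used here, so the functions of the 55 genes, their roles and the leaf markers were not analysed here. In RNA from whole leaf tissue, fewer cells of a type and less RNA per cell cannot be told apart.

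Red replicates 1 to 3 held 22673552, 19692790 and 18839959 counts, and control replicates 1 to 3 held 18040162, 18951242 and 22992137. A limit of 3 counts corresponded to 0.131 to 0.166 CPM, and covers counting error only. The lowest count of any of the 55 genes in any library was 8 (95% exact Poisson interval 3.45 to 15.8, counting error only), and 11 of the 55 had a library with under 20 counts. Plain CPM placed most rows somewhat lower in the red libraries: over the 13738 rows past the level limits, the median ratio to the mean of the controls was 0.859, 0.870 and 0.903 in red replicates 1, 2 and 3.

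The group as a whole separated 2 red libraries from the other 4. Together the 55 genes took 0.526%, 0.569% and 0.0644% of all counts in red replicates 1, 2 and 3, and 0.0670%, 0.0652% and 0.0789% in control replicates 1, 2 and 3. The mean share was 0.386% ± 0.280 in red leaves and 0.0704% ± 0.00741 in control leaves (SD, n = 3 each). Without red replicate 3 the red mean was 0.547%. On these plain totals the red libraries fell on both sides of the controls, a split that the choice of the genes favours. Red replicate 3 lay only just below the lowest control, control replicate 2 (0.0644% against 0.0652%). Library size factors (TMM, trimmed mean of M-values) were 0.957 in red replicate 3 and 1.07 in control replicate 2. Such factors raise the first share and lower the second, so the side on which red replicate 3 fell depends on the scale. Without the 2 most abundant genes of the group the shares were 0.406%, 0.326% and 0.0421% in red replicates 1 to 3, and 0.0471%, 0.0450% and 0.0518% in control replicates 1 to 3. That red replicates 1 and 2 exceed the other 4 libraries follows from the rule for any subset of the genes.

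The median gene of the group lay at 45.2, 37.3 and 4.72 CPM in red replicates 1, 2 and 3, and at 5.49, 4.22 and 4.61 CPM in control replicates 1, 2 and 3. Relative to the mean of its controls, the median ratio was 7.26 in red replicate 1 (range 3.34 to 37.1), 5.82 in red replicate 2 (3.30 to 66.4) and 0.869 in red replicate 3 (0.162 to 2.02). Most of the genes were scarce under sunlight alone: 29 of 55 had a mean control level under 5 CPM and 10 had at least 20 CPM. The median was 4.53 CPM, against 18.2 CPM over all rows past the level limits. The level limit was a mean over all 6 libraries, so high values in red replicates 1 and 2 let genes with low controls pass. A row without such high values needed higher controls to pass, so the gap between these medians is in part set by the rule. Low control levels were shared by the other genes high in red replicates 1 and 2, given below, for which the same holds. Over red replicates 1 and 2, 31 genes averaged 10 to 50 CPM, 11 averaged 50 to 100 CPM and 13 averaged at least 100 CPM.

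**Figure D1:**
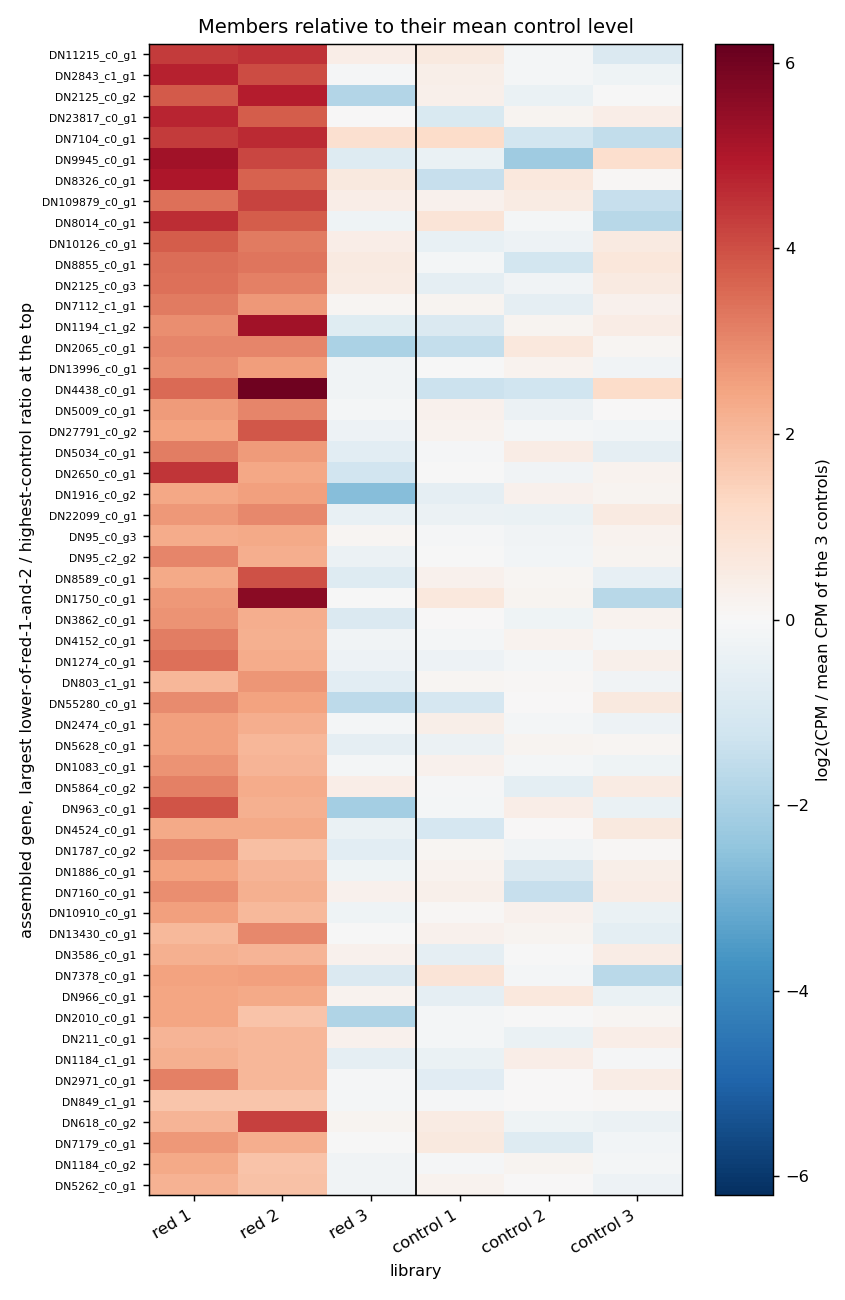
Each row is 1 of the 55 assembled genes and each column a library, red to the left of control; the colour gives log2 of the CPM over the mean CPM of the 3 controls. Red replicates 1 and 2 are red in every row because the rule asks for it, while red replicate 3 ranges from 0.162 to 2.02 times the mean control.

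The widest gaps between red replicates 1 and 2 and the highest control were about 13-fold. TRINITY_DN11215_c0_g1 had 30.3, 33.3 and 1.96 CPM in red replicates 1 to 3, against 2.27, 1.37 and 0.783 CPM in control replicates 1 to 3. Its lower value in red replicates 1 and 2 was 13.3 times the highest control, and red replicate 3 fell inside the control range. TRINITY_DN2843_c1_g1 was far more abundant, with 542, 324 and 18.8 CPM in red replicates 1 to 3, against 24.9, 17.8 and 16.2 CPM in control replicates 1 to 3. It stood 13.0 times above the highest control in the lower of red replicates 1 and 2, and red replicate 3 again lay among the controls.

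TRINITY_DN2125_c0_g2 differed in where red replicate 3 lay. It had 77.3, 162 and 1.59 CPM in red replicates 1 to 3, against 7.04, 4.22 and 5.57 CPM in control replicates 1 to 3. Red replicate 3 was therefore the lowest of all 6 libraries for a gene that had its 2 highest values under the same light. The fourth gene with a gap over 10-fold, TRINITY_DN23817_c0_g1, had 80.3, 41.1 and 3.08 CPM in red replicates 1 to 3, against 1.61, 3.48 and 4.09 CPM in control replicates 1 to 3.

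The next 6 genes by size of the gap included some with uneven controls. TRINITY_DN7104_c0_g1 had 186, 227 and 18.7 CPM in red replicates 1 to 3, against 20.3, 4.22 and 3.18 CPM in control replicates 1 to 3. Red replicate 3 exceeded control replicates 2 and 3 by over 4-fold there and met the rule only through control replicate 1. TRINITY_DN9945_c0_g1 had 71.5, 34.1 and 1.12 CPM in red replicates 1 to 3, against 1.44, 0.422 and 3.91 CPM in control replicates 1 to 3. TRINITY_DN8326_c0_g1 had 98.7, 38.6 and 4.72 CPM in red replicates 1 to 3, against 1.16, 4.86 and 3.26 CPM in control replicates 1 to 3. Both had controls that differed among themselves more than red replicate 3 differed from their mean. The other 3 were TRINITY_DN109879_c0_g1, TRINITY_DN8014_c0_g1 and TRINITY_DN10126_c0_g1, whose lower value in red replicates 1 and 2 was 7.63, 7.56 and 6.40 times the highest control.

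**Figure D2:**
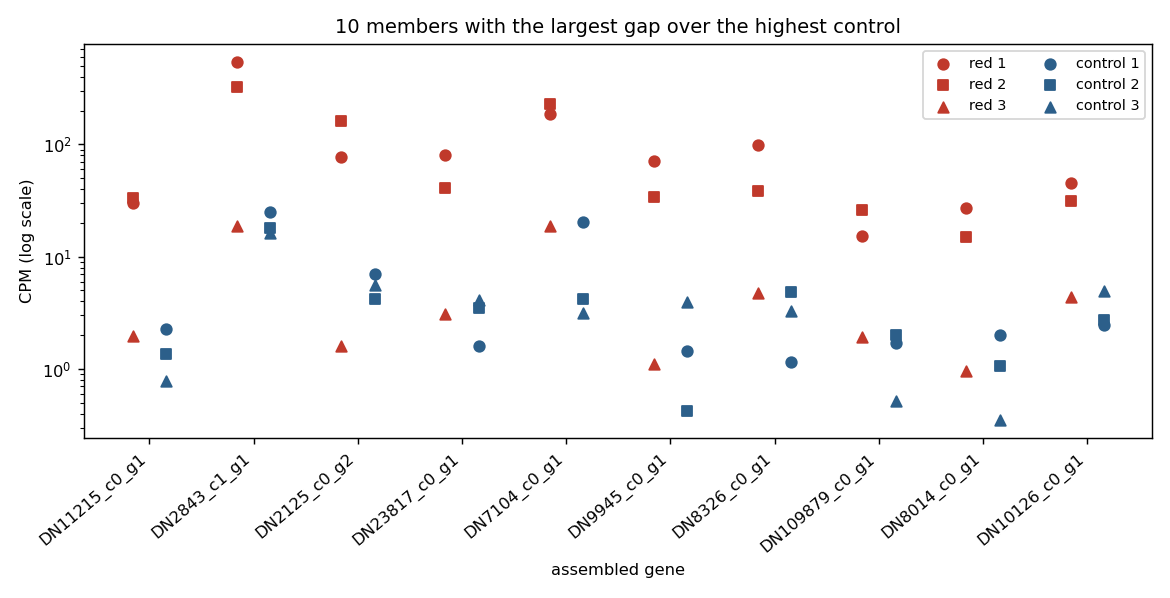
CPM on a log axis in each library (red symbols, red libraries; blue symbols, controls; the shape gives the replicate) for the 10 genes with the largest ratio of the lower of red replicates 1 and 2 to the highest control. The red triangles, red replicate 3, lie at or below the highest blue symbol in all 10 genes, and the gap above ranges from 6.40-fold to 13.3-fold.

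The most abundant gene of the group was TRINITY_DN95_c0_g3, with 916, 940 and 199 CPM in red replicates 1 to 3, against 178, 159 and 217 CPM in control replicates 1 to 3. Red replicates 1 and 2 were close to each other and the 4 other libraries lay close together far below them. TRINITY_DN1194_c1_g2 came next, with 288, 1488 and 23.9 CPM in red replicates 1 to 3, against 21.1, 44.0 and 53.8 CPM in control replicates 1 to 3. It alone supplied 26.2% of the group's counts in red replicate 2.

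Among the other abundant genes were 3 with lower values in red replicates 1 and 2. TRINITY_DN1886_c0_g1 had 281, 218 and 41.5 CPM in red replicates 1 to 3, against 58.7, 27.2 and 64.6 CPM in control replicates 1 to 3. TRINITY_DN2971_c0_g1 had 247, 119 and 26.4 CPM in red replicates 1 to 3, against 17.3, 28.8 and 38.1 CPM in control replicates 1 to 3. TRINITY_DN13996_c0_g1 had 165, 136 and 19.5 CPM in red replicates 1 to 3, against 21.9, 26.01 and 19.5 CPM in control replicates 1 to 3. Of these 3, TRINITY_DN13996_c0_g1 had the tightest controls (22.5 ± 3.30 CPM, SD, n = 3), and its red replicate 3 was within 1 SD of their mean. TRINITY_DN1787_c0_g2 and TRINITY_DN966_c0_g1 completed the 10 most abundant, at 3.39 and 3.19 times the highest control.

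Red replicates 1 and 2 did not always stand at the same height. In 28 of the 55 genes they were within 1.5-fold of each other, and red replicate 1 was the higher in 36, or 65.5%, against 46.5% of all rows past the level limits. Red replicate 1 was at least 2 times red replicate 2 in 7 genes, and red replicate 2 at least 2 times red replicate 1 in another 7. The differences of over 4-fold were mostly in favour of red replicate 2, in TRINITY_DN1194_c1_g2, TRINITY_DN1750_c0_g1, TRINITY_DN4438_c0_g1 and TRINITY_DN618_c0_g2. TRINITY_DN2650_c0_g1 was the 1 gene that favoured red replicate 1 by over 4-fold. Of these 5 genes, TRINITY_DN1750_c0_g1, TRINITY_DN618_c0_g2 and TRINITY_DN2650_c0_g1 were named after their values were seen.

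TRINITY_DN4438_c0_g1 had 12.7, 74.2 and 0.955 CPM in red replicates 1 to 3, against 0.444, 0.475 and 2.44 CPM in control replicates 1 to 3. TRINITY_DN1750_c0_g1 had 10.01, 76.9 and 1.54 CPM in red replicates 1 to 3, against 2.44, 1.79 and 0.478 CPM in control replicates 1 to 3. TRINITY_DN2650_c0_g1 had 41.3, 10.2 and 0.849 CPM in red replicates 1 to 3, against 1.89, 1.69 and 2.26 CPM in control replicates 1 to 3. In each of the 3, red replicates 1 and 2 lay further from each other than the controls did in CPM, yet both cleared every control. Across the 55 genes, Spearman's rho between the ratios of red replicate 1 and of red replicate 2 to the mean control was 0.47. With red replicate 3, rho was 0.11 for red replicate 1 and 0.17 for red replicate 2. These are descriptions over genes, which share libraries and the same control mean, and the rule cuts the range of all 3 ratios.

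**Figure D3:**
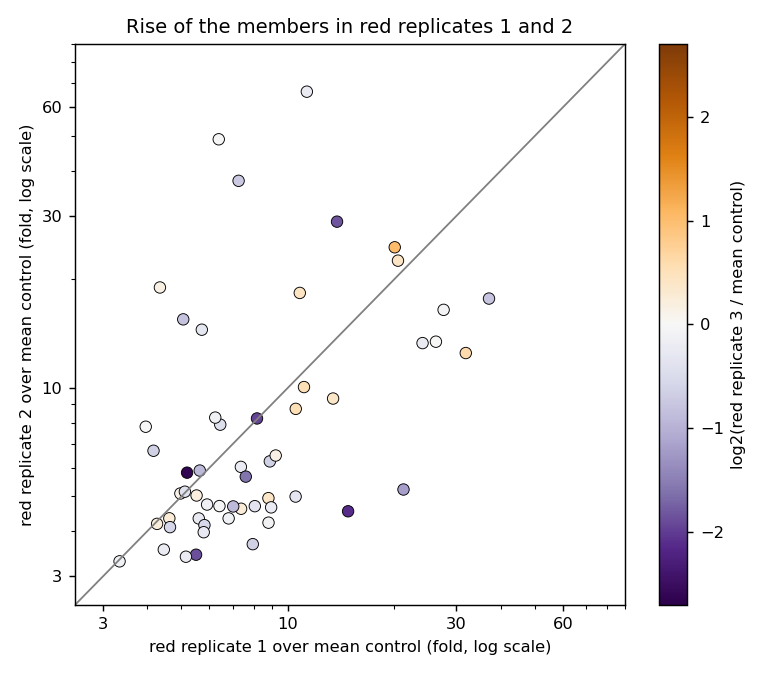
Each point is 1 of the 55 genes, placed by its ratio to the mean control in red replicate 1 (x) and red replicate 2 (y), both on log axes; the line marks equal ratios and the colour gives log2 of red replicate 3 over the mean control. More points lie below the line (36) than above it (19), and the points farthest above it reach 66.4 on the y axis.

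Within the limit set by the rule, red replicate 3 was spread over and below the control range. It lay below all 3 controls in 21 genes, above 1 control in 18 and above 2 controls in 16. Of the 11219 rows past the level limits that met the same limit on red replicate 3, it lay below all 3 controls in 5309. It was within 1.5-fold of the mean control in 38 of the 55 genes. In 7 (12.7%) it was at most 0.5 times the mean control, against 6.90% of all rows past the level limits. The quartiles of its ratio to the mean control were 0.64 and 1.09 in the 55 genes, and 0.749 and 1.08 over all those rows. Not all of those rows meet the limit on red replicate 3. The highest ratios of red replicate 3 to the mean control were 2.02 in TRINITY_DN7104_c0_g1, 1.53 in TRINITY_DN8326_c0_g1 and 1.46 in TRINITY_DN8855_c0_g1.

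At the other end were 3 scarce genes. TRINITY_DN1916_c0_g2 had 15.3, 17.1 and 0.478 CPM in red replicates 1 to 3, against 2.00, 3.48 and 3.35 CPM in control replicates 1 to 3. TRINITY_DN963_c0_g1 had 34.1, 10.5 and 0.531 CPM in red replicates 1 to 3, against 2.11, 3.06 and 1.74 CPM in control replicates 1 to 3. TRINITY_DN2065_c0_g1 had 23.6, 23.8 and 0.743 CPM in red replicates 1 to 3, against 1.05, 4.49 and 3.13 CPM in control replicates 1 to 3. All 3 had red replicate 3 below every control and red replicates 1 and 2 above every control, so the red libraries enclosed the controls. In the order given, red replicate 3 held 9, 10 and 14 counts, and the control with the lowest CPM held 36, 40 and 19. For TRINITY_DN2065_c0_g1 these counts are close, so the place of red replicate 3 below that control may be counting error.

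The 55 genes were a minority of those that stood high in red replicates 1 and 2. The same level and fold limits with no limit on red replicate 3 gave 204 genes. Red replicate 3 was above the highest control in 149 of them, or 73.0%, against 18.3% of all rows past the level limits. Both shares are a description only, since the 204 were chosen against that same highest control. In 112 it was above the highest control by less than 3-fold, in 37 by at least 3-fold, and the remaining 55 (27.0%) form the group described here. The ratio of red replicate 3 to the highest control had a median of 1.54 over the 204 genes and ran from low to high values with no gap at the limit.

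**Figure D4:**
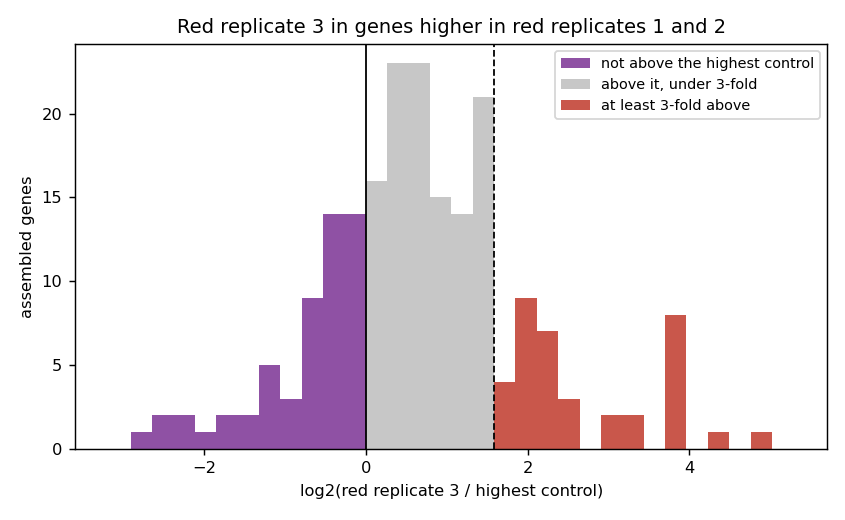
Number of assembled genes by log2 of the ratio of red replicate 3 to the highest control, for the 204 genes at least 3 times above every control in red replicates 1 and 2. The solid line marks the highest control and the dashed line 3 times it; 55 genes lie left of the solid line, 112 between the lines and 37 to the right of the dashed line.

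The size of the difference in red replicates 1 and 2 was described for these 3 groups of genes without a test. The mean of red replicates 1 and 2 over the mean control had a median of 6.81 in the 55 genes, of 7.68 in the 112 with red replicate 3 above the highest control by less than 3-fold and of 11.8 in the 37 that were high in all 3 red libraries. The median mean level of red replicates 1 and 2 was 39.1, 59.2 and 146 CPM in the same order, and the median mean control level was 4.53, 6.46 and 5.13 CPM. Red replicate 1 was above red replicate 2 in 65.5% of the 55 genes, 58.0% of the 112 and 27.0% of the 37. The opposite pattern, with red replicates 1 and 2 at least 3 times below every control and red replicate 3 not below the lowest control, was met by 104 genes. Those 104 took 0.103%, 0.187% and 1.62% of counts in red replicates 1 to 3, and 1.66%, 1.29% and 1.35% in control replicates 1 to 3.

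The limits of the rule cut through continuous values. Just inside the fold limit were TRINITY_DN5262_c0_g1 (3.01 times the highest control) and TRINITY_DN1184_c0_g2 (3.07), and just outside it TRINITY_DN4295_c0_g1 (2.995) and TRINITY_DN42_c0_g1 (2.89). For red replicate 3, TRINITY_DN2125_c0_g3 (0.993 times the highest control) and TRINITY_DN8326_c0_g1 (0.973) were just inside, and TRINITY_DN5383_c1_g1 (1.01) and TRINITY_DN90989_c0_g1 (1.02) just outside. For the mean level, TRINITY_DN27791_c0_g2 (5.26 CPM) and TRINITY_DN803_c1_g1 (5.58 CPM) were inside, and TRINITY_DN5395_c0_g1 (4.88 CPM) and TRINITY_DN6251_c0_g2 (4.19 CPM) outside. The lowest counts inside were 8, in TRINITY_DN4438_c0_g1 and TRINITY_DN8014_c0_g1, and TRINITY_DN19521_c0_g3 and TRINITY_DN13626_c1_g1 were left out with 1 and 0 counts in their lowest library. The 2 genes just outside the limit on red replicate 3 looked much like those inside. TRINITY_DN5383_c1_g1 had 99.8, 52.3 and 6.53 CPM in red replicates 1 to 3, against 3.22, 6.33 and 6.44 CPM in control replicates 1 to 3.

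The scale of the libraries moved genes across the limits of the rule. With library sizes corrected by TMM factors (trimmed mean of M-values), 69 genes met the rule, and 52 of the 55 were among them. TRINITY_DN109879_c0_g1, TRINITY_DN2125_c0_g3 and TRINITY_DN8326_c0_g1 were lost, because red replicate 3 then passed the highest control. Leaving out 1 control gave 63 to 69 genes that met the rule, of which 47 to 52 belonged to the 55.

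The 55 genes came from 52 assembled clusters, and 27 of them were the only row of their cluster. The other rows of the clusters were not used by the rule, but may share reads with the chosen gene, so they are no independent support. In 16 clusters, 28 such rows met the level limits. None of the 28 was at least 3 times above every control in both red replicates 1 and 2. Both were above the highest control in 10 of the 28 (35.7%, against 17.5% of all rows past the level limits), and both were below the lowest control in 6 (21.4%, against 34.3%). The median ratio of the mean of red replicates 1 and 2 to the mean control was 1.23 in the 28 rows and 0.886 over all rows past the level limits.

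Each of 3 clusters held a pair of the genes. In TRINITY_DN95, TRINITY_DN95_c2_g2 had 227, 132 and 22.1 CPM in red replicates 1 to 3, against 27.8, 24.9 and 31.7 CPM in control replicates 1 to 3, a lower level than TRINITY_DN95_c0_g3. Red replicate 3 lay below every control in TRINITY_DN95_c2_g2 and above control replicates 1 and 2 in TRINITY_DN95_c0_g3. The 6 other rows of TRINITY_DN95 past the level limits ranged from 0.911 to 3.55 in the ratio of the mean of red replicates 1 and 2 to the mean control, and in 4 of them both red libraries were above every control. In TRINITY_DN2125, TRINITY_DN2125_c0_g3 had 74.3, 61.7 and 10.2 CPM in red replicates 1 to 3, against 4.77, 6.12 and 10.3 CPM in control replicates 1 to 3. Its partner TRINITY_DN2125_c0_g2, described above, had red replicate 3 below every control, so both stood above every control in red replicates 1 and 2, while red replicate 3 lay below every control in one and between control replicates 2 and 3 in the other. In TRINITY_DN1184, TRINITY_DN1184_c0_g2 had 45.8, 30.3 and 7.70 CPM in red replicates 1 to 3, against 8.54, 9.87 and 8.31 CPM in control replicates 1 to 3. TRINITY_DN1184_c1_g1 had 51.8, 45.9 and 7.48 CPM in red replicates 1 to 3, against 8.26, 14.7 and 10.5 CPM in control replicates 1 to 3. Both had red replicate 3 below every control.

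Some rows assembled beside one of the 55 genes stood the other way; TRINITY_DN22099 was named here after its values were seen. TRINITY_DN22099_c0_g1 had 78.1, 95.8 and 8.92 CPM in red replicates 1 to 3, against 9.31, 8.97 and 18.1 CPM in control replicates 1 to 3. TRINITY_DN22099_c0_g2, which was assembled in the same subcluster, had 163, 149 and 242 CPM in red replicates 1 to 3, against 358, 255 and 356 CPM in control replicates 1 to 3. Beside TRINITY_DN2843_c1_g1, TRINITY_DN2843_c1_g2 had 14.3, 9.04 and 15.8 CPM in red replicates 1 to 3, against 33.0, 20.3 and 19.6 CPM in control replicates 1 to 3. Both of these neighbouring rows were lower than every control in all 3 red libraries, while the chosen gene was higher in red replicates 1 and 2. TRINITY_DN2843 held 1 more row past the level limits, TRINITY_DN2843_c0_g1. It had 49.1, 48.4 and 84.3 CPM in red replicates 1 to 3, against 102.5, 99.15 and 101.1 CPM in control replicates 1 to 3.

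Sums over whole clusters include the chosen genes, so their direction is in large part set by the rule. Of the 25 clusters with more than 1 row, the sum was at least 3 times above every control in red replicates 1 and 2 in 7, and 6 of these also had red replicate 3 not above the highest control. The sum of both red replicates 1 and 2 was above every control in 23. TRINITY_DN22099, summed, had 242, 251 and 251 CPM in red replicates 1 to 3, against 372, 266 and 374 CPM in control replicates 1 to 3, so there the cluster as a whole was lower in every red library.

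**Figure D5:**
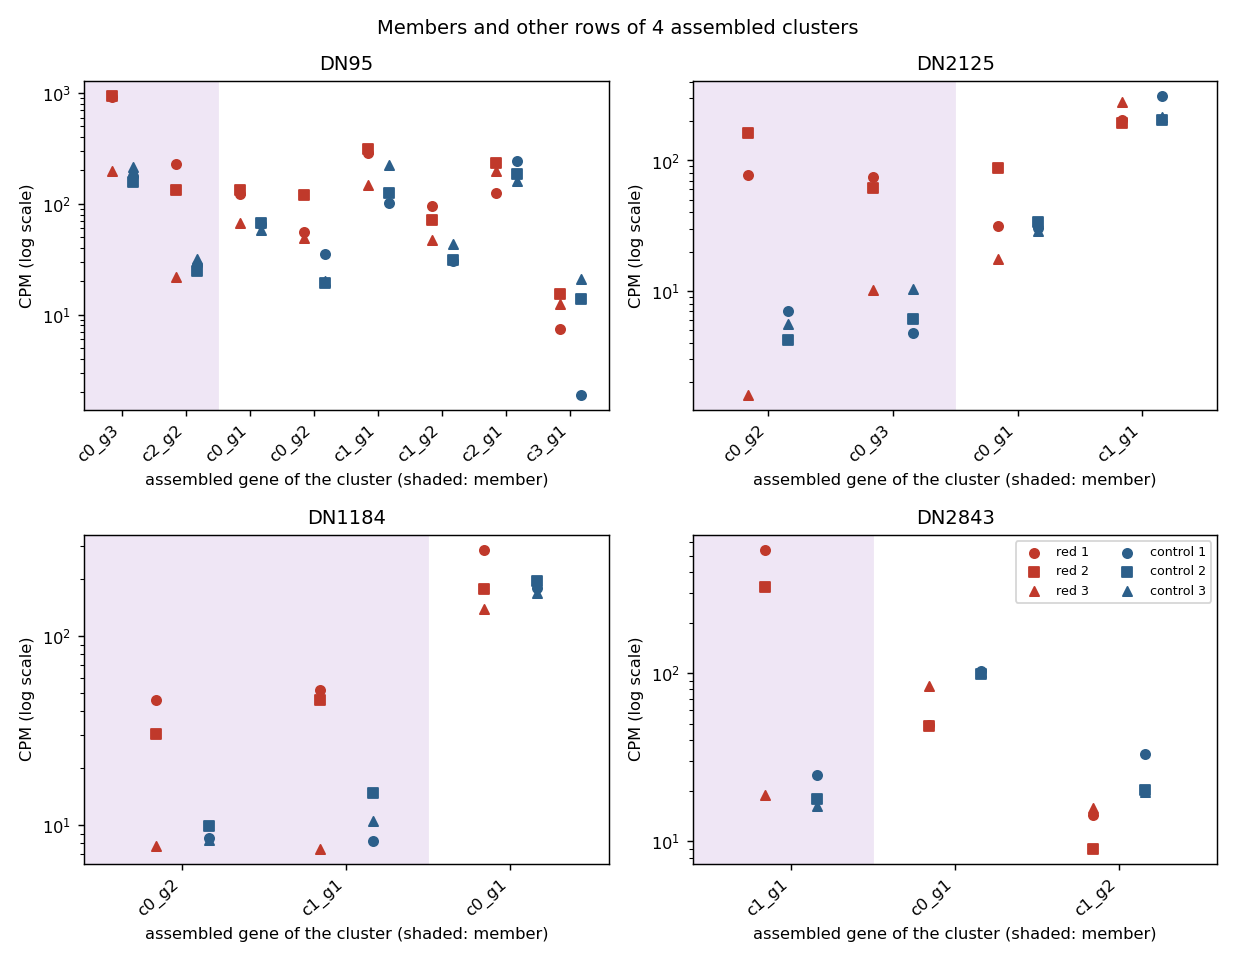
CPM on a log axis in each library (red symbols, red libraries; blue symbols, controls; the shape gives the replicate) for the rows past the level limits in 4 assembled clusters, the chosen genes shaded. The shaded genes show red replicates 1 and 2 far above the other 4 libraries, by at least 3.07-fold over the highest control, and none of the unshaded rows reaches 3-fold in both.

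The 55 genes were also read from a fit over the whole table, edgeR's quasi-likelihood test of red against control on 36013 rows. All 55 were tested and 0 were called higher at a Benjamini-Hochberg adjusted p under 0.05, against 0% of all rows (0 of 36013). At an unadjusted p under 0.05, 49 of the 55 were higher, against 5.04% of all rows, and since the rule used this contrast the count says nothing further. Their log2 fold changes ran from 1.49 to 4.81 with a median of 2.44, where the median of all tested rows was 0.0027. The median standard error of the 55 was 0.847 and that of all tested rows 0.849. These are not like for like, since many tested rows lie below the level limits, which 13738 rows meet. The rule also sets red replicate 3 apart from red replicates 1 and 2, which widens the standard error of the 55. Adjusted p from this edgeR test lay between 0.277, for TRINITY_DN2125_c0_g3 (log2 fold change 2.94, standard error 0.764), and 0.699, for TRINITY_DN1916_c0_g2 (log2 fold change 2.05, standard error 1.08).

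DESeq2 on the same rows called 28 of the 55 higher, against 2.64% of all rows. Without red replicate 3, the edgeR test called 2 of the 55, against 0.0495% of the 52573 rows tested, and 55 at an unadjusted p under 0.05, against 7.20% of all rows. The 2 called were TRINITY_DN13996_c0_g1 (edgeR adjusted p = 0.0363) and TRINITY_DN2843_c1_g1 (edgeR adjusted p = 0.0422). The median standard error of the 55 was then 0.396 and their median log2 fold change 2.93. The genes were chosen for high values in the 2 red libraries that remain, so these calls do not support the choice. What set red replicate 3 apart from red replicates 1 and 2 in these genes was not tested.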

How the data were processed

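RNA from leaves was sequenced in 6 libraries, 3 red and 3 control. The authors deposited 1 table of whole-number counts per assembled gene; row names follow the Trinity assembler's naming, per the file headers. Of the assembler version, aligner, counting program and filters, each is not given in the sources used here. The table holds 127290 rows with 18040162 to 22992137 counts per library.

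CPM were counts over column totals, with no TMM factor, as the rule states. The members, the rule and the lists were chosen with earlier results of these data known. Red was tested against control with edgeR 4.0.16 (R 4.3.3; filterByExpr, TMM, quasi-likelihood, two-sided, Benjamini-Hochberg over all tested rows). DESeq2 1.42.0, limma-voom (limma 3.58.1), DESeq2 size factors, no filter, a replicate block and leaving out each library were alternatives, as were other limits of the rule. Standard errors were derived from the F statistic. The scripts were tested on simulated data. Genes named were the 10 with the largest gap, the 10 most abundant, the 3 highest and 3 lowest in red replicate 3 (relative to the mean control), those sharing a cluster and those beside a limit, with non-member rows of their clusters past the level limits; exceptions are named as such.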

Additional observations from a re-analysis of the deposited data

How the results depend on the processing

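The number of genes that met the rule, 55, was 176 with a limit of 2-fold, 28 with 4-fold and 97 with red replicate 3 allowed up to 1.5 times the highest control. Leaving out 1 library gave 63 to 208 genes: 161 without red replicate 1, 192 without red replicate 2 and 208 without red replicate 3, whose limits then fall away. The other limits and scales tried gave 39 to 80. edgeR called 0 of all tested rows and 0 of the 55, and so did DESeq2 size factors, limma-voom and the fit with a replicate block. With the block, 17 of the 55 were higher at an unadjusted p under 0.05, against 49 without it. Over all 36013 rows the same counts were 1089 with the block and 1815 without it. Deviations from the group mean were nearly uncorrelated between same-numbered libraries (r over genes -0.06, -0.02 and -0.05). The labels do not say whether the numbers pair libraries, and these values cannot settle it. Without a filter on low counts edgeR called 254 of 122886 rows and 6 of the 55, and DESeq2 called 1636 of 36013 rows and 28 of the 55. With 1 library left out, edgeR called 0 to 43 rows and 0 to 2 of the 55, the highest of each without red replicate 3. The median log2 fold change of the 55 stayed between 1.78 and 2.93. No sign turned among the 29 members on the lists of named genes (log2 fold change 1.02 to 6.12). Those named after their values were seen are not among the 29. The rule asks for high values in red replicates 1 and 2, so these signs were largely set by the choice.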
